A study of Homo sapiens with 16 samples.

Results

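The genes described here are 10 established markers of intestinal stem and progenitor cells, LGR5, ASCL2, OLFM4, SMOC2, PTK7, EPHB2, EPHB3, SOX9, MEX3A and CD44. They were chosen by name as markers of the intestinal crypt, by a rule that uses no measured value but was written with earlier results of these data known, and each was matched by its symbol to 1 of the 54127 Ensembl gene identifiers in the count files. RNA sequencing had been carried out on 2 established lines of human colorectal cancer cells, HT55 and SW948, each grown in adherent culture with serum and exposed for 6 days to itraconazole, an antifungal triazole, at 5 µM or to its solvent DMSO. There were 4 libraries in each of the 4 groups, HT55 in DMSO, HT55 in itraconazole, SW948 in DMSO and SW948 in itraconazole, and every group shared the same time point. Each group stands for a single cell line, in which stem, progenitor and differentiated tumor cells were not sorted from each other. The study used these libraries to ask how itraconazole acts on colorectal cancer cells, among them the cells that resemble stem cells.

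In the intestinal crypt, stem cells at the base divide and give rise to progenitors that differentiate as they move upward. Wnt ligands keep the stem cells in place by stabilizing β-catenin, and R-spondins, which bind LGR5 and its relatives, raise the number of Wnt receptors at the surface by keeping the ubiquitin ligases RNF43 and ZNRF3 away from them. ASCL2 and SOX9 act in the nucleus, EPHB2 and EPHB3 position cells along the crypt by repulsion from ephrin-B, and in most colorectal cancers lesions in the Wnt pathway leave part of this program active without its usual cues.

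Depth was 8269406 to 11110814 counts in genes per library. Levels are given as counts per 1000000 gene counts (CPM), scaled by the TMM factors of edgeR over all 16 libraries. All 11 epithelial markers examined, such as EPCAM, CDH1 and the keratins KRT8 and KRT18, exceeded 1 CPM in each group, and their summed level was 6912 to 13015 CPM. Of the other cell types examined, fibroblast markers summed to at most 12.1 CPM and endothelial markers to at most 0.712 CPM. Of the 6 blood cell markers, only LYZ, which intestinal secretory cells also make, exceeded 1 CPM in any group. It was at 318 ± 25.9 CPM in SW948 DMSO, 109 ± 11.8 in SW948 itraconazole, 0.852 ± 0.350 in HT55 DMSO and 2.23 ± 0.717 in HT55 itraconazole (SD, n = 4). On the first principal component of HT55, the 4 DMSO libraries lay between -35.7 and -33.6 and itraconazole replicates 1, 2 and 4 between 34.4 and 48.9, whereas itraconazole replicate 3 stood apart at 14.8, on the side of the treated libraries but nearer to the controls. The log2 fold changes of the markers in HT55 and the HT55 counts of the gene lists are therefore given with and without it. Other values named in the text are also given without it where leaving it out changed the call or, for single genes of the lists, moved the fold change by over 1.5 times.

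A gene was called changed when the quasi-likelihood test of edgeR, fitted over all genes of a comparison, gave a Benjamini-Hochberg adjusted p under 0.05. In HT55, 9 of the 10 genes could be tested and 6 were called, every one of them lower in itraconazole. This has to be read against a broad response, since 54.0% of all 12133 genes tested in HT55 were called, 27.5% higher and 26.5% lower. In SW948, 9 of the 10 genes were tested and all 9 were called, 6 lower and 3 higher, where 80.2% of 12505 genes were called, 38.9% higher and 41.3% lower. The median log2 fold change of the tested markers was -0.61 in HT55 and -0.44 in SW948, compared with -0.02 over all genes in either line. LGR5, ASCL2, EPHB2 and EPHB3 were lower in both lines, but the EPHB2 calls were lost when some single libraries were left out. In SW948 the EPHB2 call was at the threshold (edgeR adjusted p = 0.0490). PTK7 was lower in HT55 and higher in SW948, although its rise in SW948 was not called with library totals alone. SOX9 and CD44 were called only in SW948, where they were higher. In bulk RNA, fewer cells that make a transcript and less of it in each cell cannot be told apart.

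**Figure D1:**
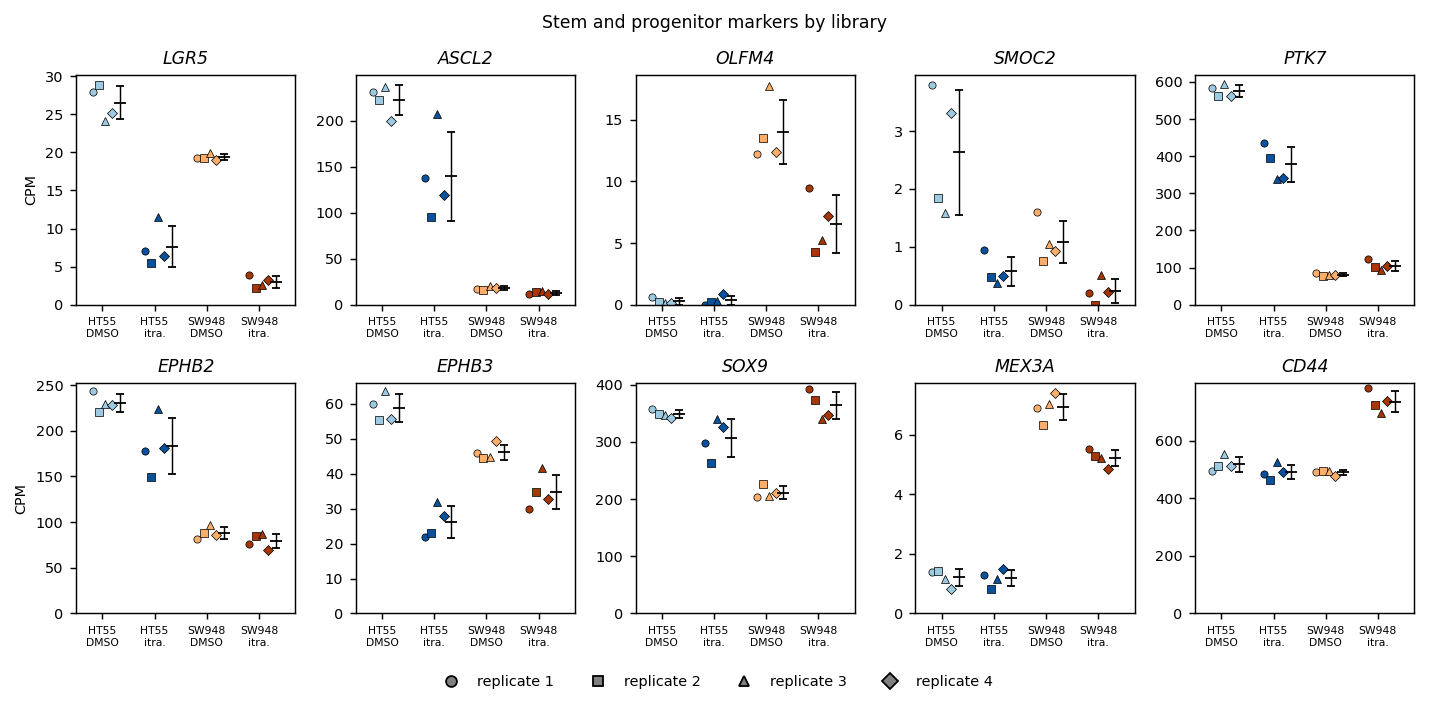
Level of each of the 10 markers, in CPM on linear axes that start at 0, in the 16 libraries. Each point is 1 library, shaped by replicate number, and the bar beside each group gives the mean ± SD of its 4 libraries. LGR5 is lower in all treated libraries of both lines, CD44 is higher only in treated SW948, and HT55 itraconazole replicate 3 (dark blue triangle) lies nearest to the controls for LGR5, ASCL2 and EPHB2.

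The 250 bases upstream of the transcription start were examined in the 7 markers with an entry in the promoter table, OLFM4, SMOC2, PTK7, EPHB2, EPHB3, MEX3A and CD44. PTK7 and EPHB2 each had 2 starts in that table, and only the window of the most upstream start was used. LGR5, ASCL2 and SOX9 are named only. The windows come from RefSeq on GRCh38.p14, a later build than the one used for counting. PTK7 moved in opposite directions in the lines with TMM factors, and the related receptors EPHB2 and EPHB3 both fell. Windows are shown for these genes and for OLFM4, whose window held the only match to the letters searched. They lie at chr13:53028563-53028812 for OLFM4, chr6:43076064-43076313 for PTK7, chr1:22710588-22710837 for EPHB2 and chr3:184561535-184561784 for EPHB3, all on the plus strand, and read 5′ to 3′ up to the base before the start. Capitals mark the searched letters.
OLFM4: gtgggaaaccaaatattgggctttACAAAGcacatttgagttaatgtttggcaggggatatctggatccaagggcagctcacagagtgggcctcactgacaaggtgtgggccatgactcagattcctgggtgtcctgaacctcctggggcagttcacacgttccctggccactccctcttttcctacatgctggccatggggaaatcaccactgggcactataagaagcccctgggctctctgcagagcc
PTK7: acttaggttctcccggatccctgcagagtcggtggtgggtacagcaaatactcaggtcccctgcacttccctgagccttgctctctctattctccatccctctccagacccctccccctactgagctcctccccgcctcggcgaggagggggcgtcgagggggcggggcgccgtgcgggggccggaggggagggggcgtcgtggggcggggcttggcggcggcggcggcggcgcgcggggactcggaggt
EPHB2: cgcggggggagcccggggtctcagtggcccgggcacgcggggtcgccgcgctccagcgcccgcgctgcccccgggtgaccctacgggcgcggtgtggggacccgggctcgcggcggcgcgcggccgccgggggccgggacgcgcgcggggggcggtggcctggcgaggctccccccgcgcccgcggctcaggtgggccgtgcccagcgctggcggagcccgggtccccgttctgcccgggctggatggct
EPHB3: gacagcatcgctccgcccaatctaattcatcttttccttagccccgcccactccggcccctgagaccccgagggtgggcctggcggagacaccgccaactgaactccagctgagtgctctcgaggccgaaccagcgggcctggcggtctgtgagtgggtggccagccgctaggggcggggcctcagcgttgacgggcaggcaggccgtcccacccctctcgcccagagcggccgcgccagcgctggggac
The letters CTTTGA and CTTTGT, the core that TCF/LEF factors bind, were searched on both strands. The 2 words do not overlap each other. The OLFM4 window held ACAAAG, the reverse complement of CTTTGT, from base -226 to base -221 before the start, and the other 6 windows held neither. Among all 35116 windows of this length, which cover every start listed for a gene, 22.8% held at least 1 match. The shown windows also differed in base composition, with 54.0% G and C in OLFM4, 71.6% in PTK7 and 84.8% in EPHB2, against a median of 58.0% over all windows.

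LGR5, the receptor for R-spondins that marks cycling stem cells of the crypt base, (ENSG00000139292) is encoded at chr12:71833578-71980090 on the plus strand of GRCh37. In HT55 its level was 27.9, 28.9, 24.2 and 25.2 CPM in DMSO and 7.001, 5.43, 11.5 and 6.46 CPM in itraconazole. In SW948 it was 19.3, 19.3, 19.9 and 18.9 CPM in DMSO and 3.90, 2.19, 2.54 and 3.27 CPM in itraconazole. The treated libraries lay below all controls in both lines. LGR5 was 3.46-fold lower in treated HT55 (log2 fold change -1.79 ± 0.20 SE, edgeR adjusted p = 5.79e-05) and 6.51-fold lower in treated SW948 (-2.70 ± 0.15, adjusted p = 1.23e-09). This was the largest fall among the markers tested in SW948, and in HT55 only SMOC2 had a larger estimate. Without HT55 itraconazole replicate 3, the highest treated value of that line, the HT55 log2 fold change was -2.07. The gene overlaps TSPAN8 on the opposite strand without sharing annotated exon bases with it, and shares 208 exon bases with the opposite-strand gene ENSG00000288530, which was not analysed here, so that its reads could not be told apart from those of LGR5 if strand was not used.

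The other receptors and partners of the R-spondin and Wnt receptor group moved in both directions. Of the 10 genes of this list tested in HT55, 5 were higher and 1 was lower, and of the 9 tested in SW948, 3 were higher and 3 lower. With library totals alone in place of TMM factors, these counts became 4 higher and 1 lower in HT55 and 1 higher and 4 lower in SW948, and without HT55 itraconazole replicate 3 they were 5 higher and 3 lower in HT55. LGR4, the widely expressed relative of LGR5, was at 35.0 ± 1.16 CPM in HT55 DMSO and 96.3 ± 22.4 CPM in HT55 itraconazole (log2 fold change 1.45 ± 0.15 SE, edgeR adjusted p = 4.38e-05), so that in this line LGR4 was higher where LGR5 was lower. In SW948 LGR4 was at 191 ± 9.17 and 187 ± 16.4 CPM (-0.06 ± 0.07, adjusted p = 0.411), a difference within the spread of the libraries, although with library totals alone it was called lower (-0.39, adjusted p = 0.000782). LGR6, another receptor of this family, was lower in SW948 (-0.88 ± 0.13) and was not called in HT55 (-0.26 ± 0.44), except without itraconazole replicate 3 (-1.01, adjusted p = 0.00259).

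Of the ubiquitin ligases that remove Wnt receptors, RNF43 was lower in SW948 (log2 fold change -0.63 ± 0.14 SE) and not called in HT55 (-0.07 ± 0.08). ZNRF3 was higher in HT55 (0.29 ± 0.08) and in SW948 (0.36 ± 0.09), but neither call held with library totals alone (0.12 and 0.03). FZD5, a Wnt receptor, was higher in both (0.94 ± 0.10 and 0.88 ± 0.06). TNFRSF19, a Wnt target at the surface of crypt stem cells, was lower in HT55 (-1.39 ± 0.37, and -1.998 without itraconazole replicate 3) and under the filter on low counts in SW948. AXIN2, the feedback target of Wnt signaling, was lower in SW948 (-0.50 ± 0.09). In HT55 it was at 765 ± 42.8 CPM in DMSO and 604 ± 184 CPM in itraconazole, where the treated libraries ran from 445 to 851 CPM and the difference was not called (-0.34 ± 0.17, edgeR adjusted p = 0.116). Without replicate 3 of the treated group AXIN2 was called lower in HT55 (-0.54, adjusted p = 0.000370). The R-spondin genes RSPO1 to RSPO4 were under the filter in both lines.

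SMOC2 and OLFM4 encode secreted proteins of the crypt base, SMOC2 a calcium-binding matrix protein and OLFM4 a glycoprotein of stem and secretory precursor cells. Each was near the limit of detection in 1 of the lines. SMOC2 (ENSG00000112562, chr6:168841831-169073984, plus strand) was at 3.79, 1.85, 1.59 and 3.32 CPM in HT55 DMSO and at 0.949, 0.472, 0.380 and 0.497 CPM in HT55 itraconazole. The groups did not overlap, although these levels rested on 96 counts in the 4 control libraries and 20 in the 4 treated ones. SMOC2 was 4.56-fold lower in treated HT55 (log2 fold change -2.19 ± 0.40 SE, edgeR adjusted p = 0.00121), with a wide 95% interval of -3.08 to -1.30, and at -1.997 without HT55 itraconazole replicate 3. The gene shares 507 exon bases with the same-strand pseudogene AL391319.1, which had 0 counts over all 16 libraries. Reads from these bases may have been set aside as ambiguous, which would lower the SMOC2 counts.

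In SW948, SMOC2 was below the filter on low counts, with 52 counts over the DMSO libraries and 8 over the itraconazole libraries. Its CPM were 1.60, 0.756, 1.04 and 0.924 in DMSO and 0.200, 0, 0.508 and 0.226 in itraconazole. All treated libraries lay below all controls, and the two-sided exact permutation test of CPM on library totals gave p = 0.0286, the smallest that its 70 assignments of 4 against 4 can give. A count of 0 allows a level of up to 0.343 CPM in that library (3 counts over its total, counting error only). This limit is on library totals alone, without the TMM factor used for the CPM listed above. OLFM4 (ENSG00000102837, chr13:53602948-53626192, plus strand) showed the reverse pattern of detection. In HT55 it had 10 counts over the DMSO libraries and 12 over the itraconazole libraries, and no difference was detectable at this depth (exact permutation p = 0.771).

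In SW948 OLFM4 was at 12.3, 13.5, 17.8 and 12.4 CPM in DMSO and at 9.50, 4.25, 5.21 and 7.23 CPM in itraconazole. The highest treated library stayed below the lowest control. OLFM4 was 2.14-fold lower in treated SW948 (log2 fold change -1.10 ± 0.20 SE, edgeR adjusted p = 0.000198). Its relative OLFM1 was tested only in HT55, where it was lower (-0.81 ± 0.19).

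ASCL2, a basic helix-loop-helix factor that Wnt signaling switches on in crypt base stem cells, is ENSG00000183734 and lies at chr11:2289728-2291818 on the minus strand. Its level in HT55 was 231, 222, 236 and 200 CPM in DMSO and 137, 95.1, 207 and 119 CPM in itraconazole. Replicate 3 at 207 CPM overlapped the controls, and the other 3 treated libraries were below them. ASCL2 was 1.59-fold lower in treated HT55 (log2 fold change -0.67 ± 0.19 SE, edgeR adjusted p = 0.0132). Without replicate 3 of the treated group, the log2 fold change was -0.92 (adjusted p = 5.14e-06).

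SW948 contained much less ASCL2, with 17.2, 15.6, 20.4 and 18.2 CPM in DMSO and 11.2, 13.7, 14.5 and 11.3 CPM in itraconazole. Here the groups did not overlap, and the gene was 1.45-fold lower after treatment (log2 fold change -0.54 ± 0.12 SE, edgeR adjusted p = 0.000985).

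SOX9, an HMG-box factor of stem and progenitor cells and of Paneth cells, is ENSG00000125398 and is encoded at chr17:70117161-70122557 on the plus strand. SW948 had 204, 227, 205 and 210 CPM of it in DMSO and 393, 373, 341 and 348 CPM in itraconazole. All treated libraries lay far above the controls, and SOX9 was 1.68-fold higher (log2 fold change 0.75 ± 0.07 SE, edgeR adjusted p = 1.41e-07). The size of this rise depended on the scaling, since with library totals alone it was 0.42 (edgeR adjusted p = 0.00013). In HT55 the DMSO libraries had 358, 348, 348 and 342 CPM and the itraconazole libraries 298, 263, 341 and 325 CPM. The highest treated value was just under the lowest control, but the difference of -0.19 ± 0.08 (SE) was not called (edgeR adjusted p = 0.0679). Without replicate 3 it was -0.23 with an adjusted p of 0.00893, and it was also called with library totals alone (-0.35, adjusted p = 0.0113) and in 1 fit of all 16 libraries (-0.18, adjusted p = 0.0440). SOX8, the tested relative of SOX9, was higher in both lines, by 0.98 ± 0.22 on the log2 scale in HT55 and 1.02 ± 0.13 in SW948.

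PTK7, a catalytically inactive receptor kinase of Wnt signaling and cell polarity that marks colon stem cells, is ENSG00000112655 and lies at chr6:43044045-43129457 on the plus strand. HT55 held 584, 563, 594 and 561 CPM in DMSO and 435, 395, 340 and 340 CPM in itraconazole. SW948 held 84.8, 76.7, 80.7 and 80.9 CPM in DMSO and 123, 101, 92.2 and 104 CPM in itraconazole. The groups did not overlap in either line, but they were ordered in opposite ways. PTK7 was 1.53-fold lower in treated HT55 (log2 fold change -0.61 ± 0.08 SE, edgeR adjusted p = 0.000216). It was 1.27-fold higher in treated SW948 (0.35 ± 0.08, adjusted p = 0.00146), and this rise depended on the scaling, since with library totals alone the SW948 value was 0.02 (adjusted p = 0.849). ROR1, another receptor kinase of Wnt signaling, was tested only in SW948 among the within-line comparisons, where it was lower (-2.62 ± 0.17).

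EPHB2 and EPHB3, receptor kinases whose levels are highest at the crypt base and decline toward the surface, are ENSG00000133216 and ENSG00000182580 and are encoded at chr1:23037332-23247993 and chr3:184279573-184300196, both on the plus strand. EPHB3 had 60.0, 55.4, 63.8 and 55.7 CPM in HT55 DMSO and 21.8, 23.1, 31.8 and 28.1 CPM in HT55 itraconazole. In SW948 it had 45.8, 44.4, 44.9 and 49.3 CPM in DMSO and 29.9, 34.7, 41.7 and 32.9 CPM in itraconazole. The treated libraries were below the controls in both lines, with a 2.24-fold difference in HT55 (log2 fold change -1.16 ± 0.12 SE, edgeR adjusted p = 3.60e-05) and a 1.36-fold difference in SW948 (-0.44 ± 0.10, adjusted p = 0.000683). Without HT55 itraconazole replicate 3, the HT55 value was -1.26.

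The decrease of EPHB2 was smaller. HT55 had 243, 221, 229 and 228 CPM in DMSO and 178, 149, 224 and 181 CPM in itraconazole, and again replicate 3 alone reached the range of the controls. The log2 fold change was -0.34 ± 0.11 (SE, edgeR adjusted p = 0.0211), and -0.44 without replicate 3 (adjusted p = 0.000134). It missed the threshold when DMSO replicate 1 (-0.30, adjusted p = 0.0671) or DMSO replicate 3 (-0.33, adjusted p = 0.0508) was left out, and when itraconazole replicate 1 (-0.32, adjusted p = 0.0524) or itraconazole replicate 4 (-0.33, adjusted p = 0.0539) was left out. In SW948, EPHB2 was at 81.3, 88.1, 97.3 and 85.8 CPM in DMSO and 75.6, 84.4, 87.2 and 69.9 CPM in itraconazole. The groups overlapped, and the log2 fold change of -0.19 ± 0.08 (SE) was at the threshold (edgeR adjusted p = 0.0490). This call was lost with DESeq2 (-0.16, adjusted p = 0.112) and when any 1 of DMSO replicates 2, 3 and 4 or itraconazole replicates 1 and 4 was left out, where the values were -0.20 to -0.12 and the adjusted p 0.0649 to 0.189. It was kept with library totals alone, where the fall was larger (-0.52, edgeR adjusted p = 2.77e-05), and with a replicate block (-0.19, adjusted p = 0.0233).

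Among the other EphB receptors and the ephrin-B ligands, 1 of 5 tested genes was lower and none was called higher in HT55, while 2 were higher and 2 lower of 4 tested in SW948. With library totals alone, 2 were lower in HT55, and 1 was higher and 2 were lower in SW948. Without HT55 itraconazole replicate 3, 1 was higher and 1 was lower in HT55. EFNB2, a ligand of these receptors, was at 396 ± 17.7 CPM in SW948 DMSO and 136 ± 7.59 CPM in SW948 itraconazole (log2 fold change -1.58 ± 0.07 SE, edgeR adjusted p = 1.39e-10), a larger fall than that of EPHB3 in the same line. In HT55 EFNB2 was not called (0.15 ± 0.11, adjusted p = 0.270), except without itraconazole replicate 3 (0.27, adjusted p = 0.00304). EFNB1, the other ligand tested, was higher in SW948 (0.59 ± 0.11), where the receptor EPHB1 was lower (-0.97 ± 0.11) and EPHB4 higher (0.23 ± 0.07, and -0.10 with library totals alone). EPHB6, which lacks kinase activity, was lower in HT55 (-1.55 ± 0.22).

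CD44, the surface receptor for hyaluronan and a Wnt target of crypt progenitors, is ENSG00000026508 and lies at chr11:35160429-35253949 on the plus strand. In SW948 it was at 491, 494, 495 and 478 CPM in DMSO and 784, 724, 698 and 739 CPM in itraconazole. All treated libraries were above the controls, by 1.47-fold (log2 fold change 0.56 ± 0.06 SE, edgeR adjusted p = 1.11e-06). The size of this rise depended on the scaling, since with library totals alone it was 0.23 (edgeR adjusted p = 0.00636). In HT55 it was at 496, 511, 554 and 511 CPM in DMSO and 485, 463, 525 and 491 CPM in itraconazole, and these ranges overlapped. The HT55 log2 fold change was -0.08 ± 0.07 with a 95% interval of -0.22 to 0.06 (edgeR adjusted p = 0.314), and it was called as a decrease only with library totals alone (-0.24, adjusted p = 0.0189). CD44 shares 84 exon bases with the antisense gene CD44-AS1 and 70 with CD44-DT, which had 9 and 13 counts over all 16 libraries.

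The genes that make and break down hyaluronan moved in both directions. With CD44 included, 1 of 7 tested genes of this list was higher and 4 were lower in HT55, and 2 were higher and 5 lower in SW948 (0 higher and 5 lower in HT55 with library totals alone, and the same numbers in SW948; 1 higher and 5 lower in HT55 without itraconazole replicate 3). HAS2, a hyaluronan synthase, fell in HT55 (log2 fold change -2.13 ± 0.17 SE) and in SW948 (-0.98 ± 0.20). HAS3, a second synthase, was lower in HT55 (-1.10 ± 0.17) and higher in SW948 (0.70 ± 0.12). CEMIP, which is needed for hyaluronan breakdown, fell from 95.4 ± 5.53 to 14.6 ± 2.96 CPM in SW948 (-2.73 ± 0.11) and from 313 ± 6.95 to 152 ± 43.1 CPM in HT55 (-1.04 ± 0.17). HMMR, another hyaluronan receptor, was lower in both (-0.79 ± 0.20 and -0.74 ± 0.11).

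MEX3A, an RNA-binding protein of slowly dividing LGR5-positive cells, is ENSG00000254726 and lies at chr1:156041804-156052256 on the minus strand. SW948 had 6.89, 6.33, 7.03 and 7.39 CPM in DMSO and 5.50, 5.28, 5.21 and 4.86 CPM in itraconazole. The groups did not overlap, and MEX3A was 1.36-fold lower after treatment (log2 fold change -0.44 ± 0.13 SE, edgeR adjusted p = 0.00688). In HT55 the level was 1.41, 1.44, 1.17 and 0.8294 CPM in DMSO and 1.30, 0.826, 1.14 and 1.49 CPM in itraconazole, from 45 and 42 counts in all. The ranges coincided, and the log2 fold change of -0.04 ± 0.28 had a 95% interval of -0.67 to 0.58 (edgeR adjusted p = 0.907), so that a change of the size seen in SW948 was not detectable at this depth. Its relatives MEX3C and MEX3D were higher in SW948 (0.77 ± 0.08 and 0.82 ± 0.12) and not called in HT55, except MEX3C without itraconazole replicate 3 (0.23, edgeR adjusted p = 0.0476).

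**Figure D2:**
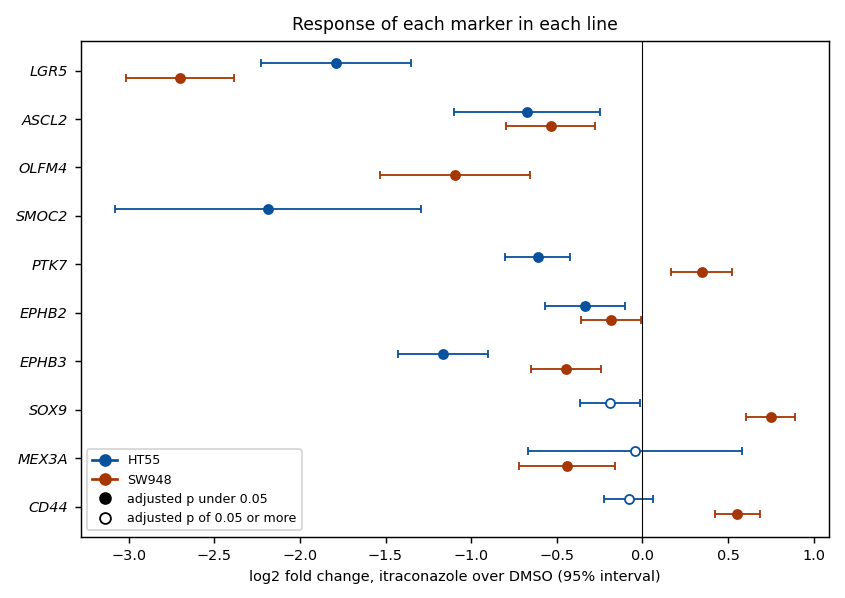
Log2 fold change of each marker, itraconazole over DMSO, in HT55 (blue) and SW948 (orange), with 95% intervals from the edgeR fit of each line. Filled points were called at an adjusted p under 0.05 and open points were not, and no point is drawn for OLFM4 in HT55 and SMOC2 in SW948, which were under the filter. PTK7 lies on opposite sides of 0 in the lines, and LGR5 is far below 0 in both.

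Counting separation in place of the test, 5 of the 9 tested markers in HT55 (LGR5, SMOC2, PTK7, EPHB3 and SOX9) had all treated libraries on 1 side of all controls, where 49.4% of all genes tested did so. In SW948, 8 of 9 did, all but EPHB2, where 74.7% of all genes tested did so. With library totals alone, the median log2 fold change of all genes moved by -0.17 in HT55 and -0.33 in SW948, and the calls over all genes shifted to 2279 higher and 4710 lower in HT55 and 3145 higher and 6832 lower in SW948, from 3340 and 3213 in HT55 and 4865 and 5165 in SW948. Without HT55 itraconazole replicate 3, 7 markers were called lower in HT55 and none higher, where 64.5% of 12263 genes were called, with PTK7 at -0.55, CD44 at -0.10 and MEX3A at -0.01, the last pair not called. Under library totals alone, 8 markers were called lower in HT55 and none higher, and 6 lower and 2 higher in SW948. These falls in SW948 were larger than with TMM factors. Their log2 fold changes were -3.03 for LGR5, -1.42 for OLFM4, -0.87 for ASCL2, -0.78 for EPHB3, -0.77 for MEX3A and -0.52 for EPHB2.

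**Figure D3:**
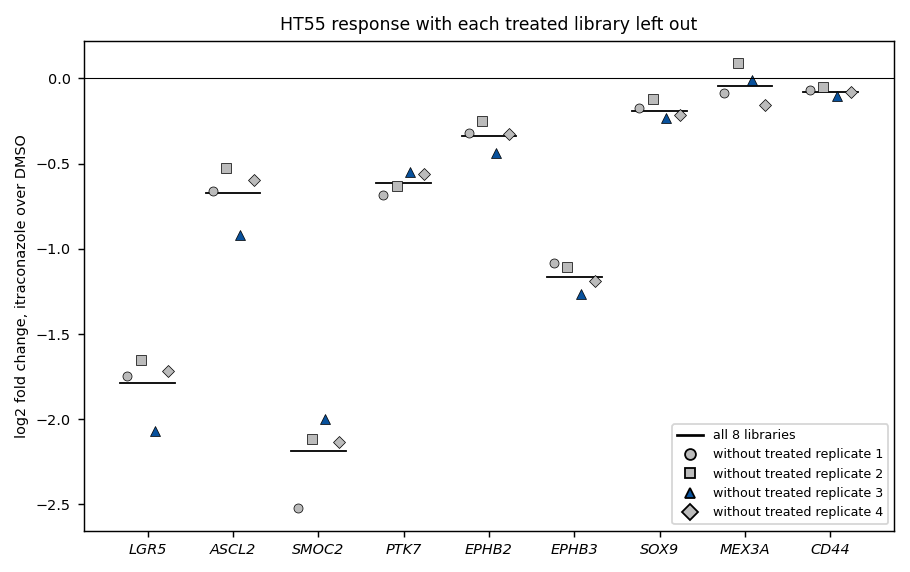
Log2 fold change in HT55, itraconazole over DMSO, for the 9 tested markers with all 8 libraries (black lines) and after leaving out each treated library in turn (symbols by replicate, replicate 3 in blue). Without replicate 3, the estimates of LGR5, ASCL2, EPHB2, EPHB3, SOX9 and CD44 lie lower than with all libraries, and those of SMOC2, PTK7 and MEX3A lie nearer to 0.

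Whether the lines responded differently was tested by the interaction of line and treatment over all 16 libraries, which shares its libraries with the comparisons above. All 10 markers could be tested and 5 were called, where 53.9% of 13249 genes were. The SW948 response minus the HT55 response was 0.99 ± 0.12 on the log2 scale for PTK7 (SE, edgeR adjusted p = 2.47e-06), 0.97 ± 0.11 for SOX9 (adjusted p = 5.18e-07), 0.75 ± 0.16 for EPHB3 (adjusted p = 0.000491) and 0.67 ± 0.09 for CD44 (adjusted p = 4.19e-06). The difference for LGR5 was -0.89 ± 0.27 (adjusted p = 0.00829), a deeper fall in SW948. For PTK7 the difference spans a fall in HT55 and a rise in SW948, which with library totals alone was 0.02 and not called. For EPHB3 it separates a larger from a smaller fall. Without HT55 itraconazole replicate 3, the LGR5 difference was -0.60 (adjusted p = 0.0170).

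No difference was called for ASCL2 (0.16, 95% interval -0.37 to 0.70), EPHB2 (0.18, -0.11 to 0.47), MEX3A (-0.37, -0.97 to 0.24), OLFM4 (-1.38, -3.22 to 0.47) or SMOC2 (0.02, -1.35 to 1.38). The intervals of OLFM4 and SMOC2 were wide, and each of these genes was below the filter in 1 of the lines. Without HT55 itraconazole replicate 3, ASCL2 (0.41, edgeR adjusted p = 0.0419) and EPHB2 (0.28, adjusted p = 0.0439) passed as well, with 7 markers called in all, where 53.7% of 13429 genes were. With library totals alone, the differences of ASCL2 (-0.05), EPHB2 (-0.03) and SMOC2 (-0.17) changed sign without being called.

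The lines also differed in how much of each marker they held before treatment. In DMSO, 9 of the 10 markers differed between SW948 and HT55, 7 lower and 2 higher in SW948, where 84.2% of 12820 genes differed, 42.6% higher and 41.6% lower. ASCL2 was 12.4-fold lower in SW948 (log2 difference -3.63 ± 0.07 SE, edgeR adjusted p = 4.82e-24) and PTK7 7.10-fold lower (-2.83 ± 0.04, adjusted p = 3.16e-25). EPHB2 was lower by 2.61-fold, SMOC2 by 2.37-fold, SOX9 by 1.65-fold, LGR5 by 1.37-fold and EPHB3 by 1.27-fold. OLFM4 was 49.4-fold higher in SW948 (5.63 ± 0.28, adjusted p = 1.80e-15), a ratio that rests on 10 counts in HT55, and MEX3A was 5.65-fold higher (2.497 ± 0.19, adjusted p = 6.92e-12). CD44 was at nearly the same level in both lines (-0.08 ± 0.04, 95% interval -0.16 to 0.01, adjusted p = 0.0895), and with library totals alone its difference turned to 0.12 (adjusted p = 0.0112).

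In itraconazole, 9 markers were tested between the lines and all 9 differed, 5 higher and 4 lower in SW948, where 76.6% of 12353 genes differed, 37.8% higher and 38.8% lower. Against the order in DMSO, EPHB3 (log2 difference 0.41 ± 0.15 SE, edgeR adjusted p = 0.0244) and SOX9 (0.25 ± 0.10, adjusted p = 0.0390) were now higher in SW948, although the libraries of the lines overlapped for both. These values were 0.53 and 0.31 without HT55 itraconazole replicate 3. The call of EPHB3 was lost when HT55 itraconazole replicate 1 (0.32, adjusted p = 0.0816) or replicate 2 (0.35, adjusted p = 0.0611), or SW948 itraconazole replicate 3 (0.32, adjusted p = 0.0737), was left out. That of SOX9 was lost when HT55 itraconazole replicate 1, 2 or 4, or SW948 itraconazole replicate 1 or 2, was left out (0.18 to 0.27, adjusted p = 0.0547 to 0.115). CD44 was 1.504-fold higher in SW948 (0.59 ± 0.09, adjusted p = 5.34e-05), with a log2 difference of 0.63 without HT55 itraconazole replicate 3. LGR5 was 2.53-fold lower (-1.34 ± 0.28, adjusted p = 0.000897), with a log2 difference of -1.05 without HT55 itraconazole replicate 3. SMOC2 was below the filter, with 8 counts in SW948 and 20 in HT55 (exact permutation p = 0.0857).

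Over the 4 groups, LGR5 was ordered HT55 DMSO, SW948 DMSO, HT55 itraconazole and SW948 itraconazole from highest to lowest, with no overlap of neighboring groups. PTK7 was likewise separated at each step, from 576 ± 16.2 CPM in HT55 DMSO through 378 ± 46.5 in HT55 itraconazole and 105 ± 13.2 in SW948 itraconazole to 80.8 ± 3.29 in SW948 DMSO. ASCL2 and EPHB2 were highest in HT55 DMSO, then HT55 itraconazole, which overlapped it, then SW948 DMSO and SW948 itraconazole. CD44 was highest in SW948 itraconazole, and HT55 DMSO, HT55 itraconazole and SW948 DMSO followed at means of 518 to 490 CPM, each overlapping the next, while the HT55 DMSO libraries (lowest 496.0) just cleared those of SW948 DMSO (highest 495.5). SOX9 was highest in SW948 itraconazole at 364 ± 24.0 CPM, overlapping HT55 DMSO at 349 ± 6.49, and lowest in SW948 DMSO at 211 ± 10.7 (SD, n = 4 for each group). For SMOC2, each neighboring pair of groups overlapped.

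**Figure D4:**
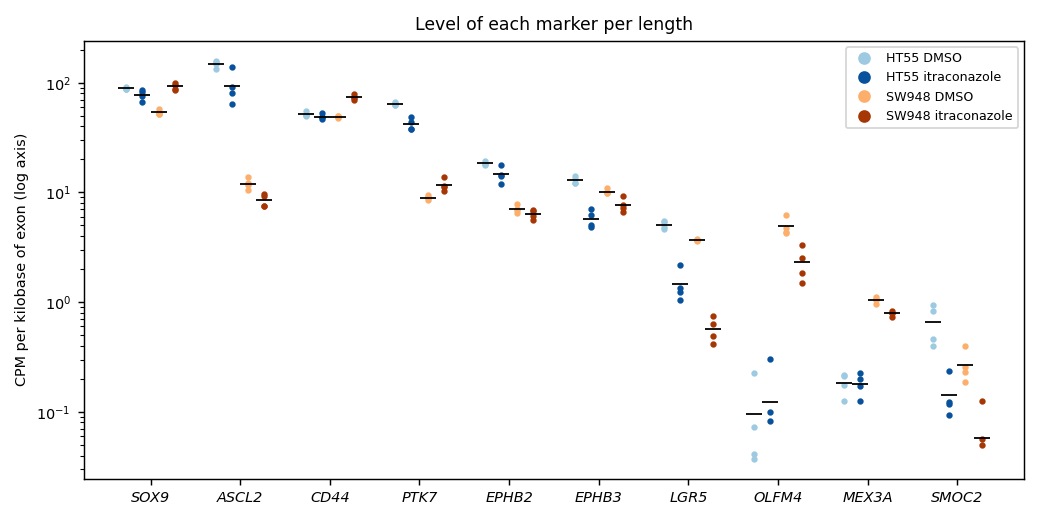
Level of each marker per kilobase of annotated exon, in CPM per kilobase on a log axis, for the 4 groups. Points are single libraries, dashes are the means of 4, and the libraries at 0 (1 of HT55 itraconazole for OLFM4 and 1 of SW948 itraconazole for SMOC2) cannot be drawn. SOX9 and CD44 are high in all groups, and ASCL2 has the highest mean in HT55 but not in SW948.

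To compare genes with each other, CPM were divided by the length of each gene's annotated exons. Per kilobase, ASCL2 was the highest marker in HT55 DMSO at 150 ± 10.9 CPM per kilobase, followed by SOX9 at 88.7 ± 1.65, PTK7 at 64.1 ± 1.80 and CD44 at 51.8 ± 2.51. In SW948 DMSO, SOX9 was highest at 53.8 ± 2.73 CPM per kilobase, then CD44 at 49.0 ± 0.809, and ASCL2 followed at 12.02 ± 1.35. LGR5, at 5.08 ± 0.424 CPM per kilobase in HT55 DMSO and 3.705 ± 0.0731 in SW948 DMSO, ranked 7 and 8 of the 10 markers. Treatment moved LGR5 to rank 9 in SW948, at 0.570 ± 0.146 CPM per kilobase, below MEX3A at 0.791 ± 0.0408. SMOC2 and OLFM4 held the lowest ranks, SMOC2 in SW948 and OLFM4 in HT55. With the length of the longest transcript in place of all exons, CD44 took the first rank in both SW948 groups. In HT55 DMSO, PTK7 then stood second at 109 CPM per kilobase and CD44 followed at 95.4, both above SOX9, and in SW948 DMSO PTK7 at 15.3 passed ASCL2.

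A longer list of crypt base and progenitor genes also moved in both directions. In HT55, 18 were tested, of which 4 were higher and 5 lower, and in SW948 19 were tested, of which 4 were higher and 13 lower (2 higher and 9 lower in HT55 and 2 higher and 14 lower in SW948 with library totals alone). Without HT55 itraconazole replicate 3, 4 were higher and 6 lower in HT55. The list's median log2 fold change was -0.09 in HT55 and -0.53 in SW948. In HT55, with all libraries, the largest change of a tested gene was that of CDCA7, a nuclear protein of dividing stem cells, at -1.90 ± 0.12 (SE), while without itraconazole replicate 3 that of TNFRSF19 was larger (-1.998 against -1.94), and LRIG1, which restrains growth factor receptors in stem cells, was lower (-0.84 ± 0.17). In SW948, ALCAM (CD166), an adhesion molecule, was lower (-1.76 ± 0.09) and so was the ion cotransporter SLC12A2 (-1.38 ± 0.10). NOTCH1 (1.65 ± 0.09) and PHLDA1 (1.54 ± 0.08) were higher in SW948, and neither was called in HT55 (0.02 ± 0.13 and -0.21 ± 0.12). Without HT55 itraconazole replicate 3 they were at -0.10 and -0.08 in HT55, still not called.

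**Figure D5:**
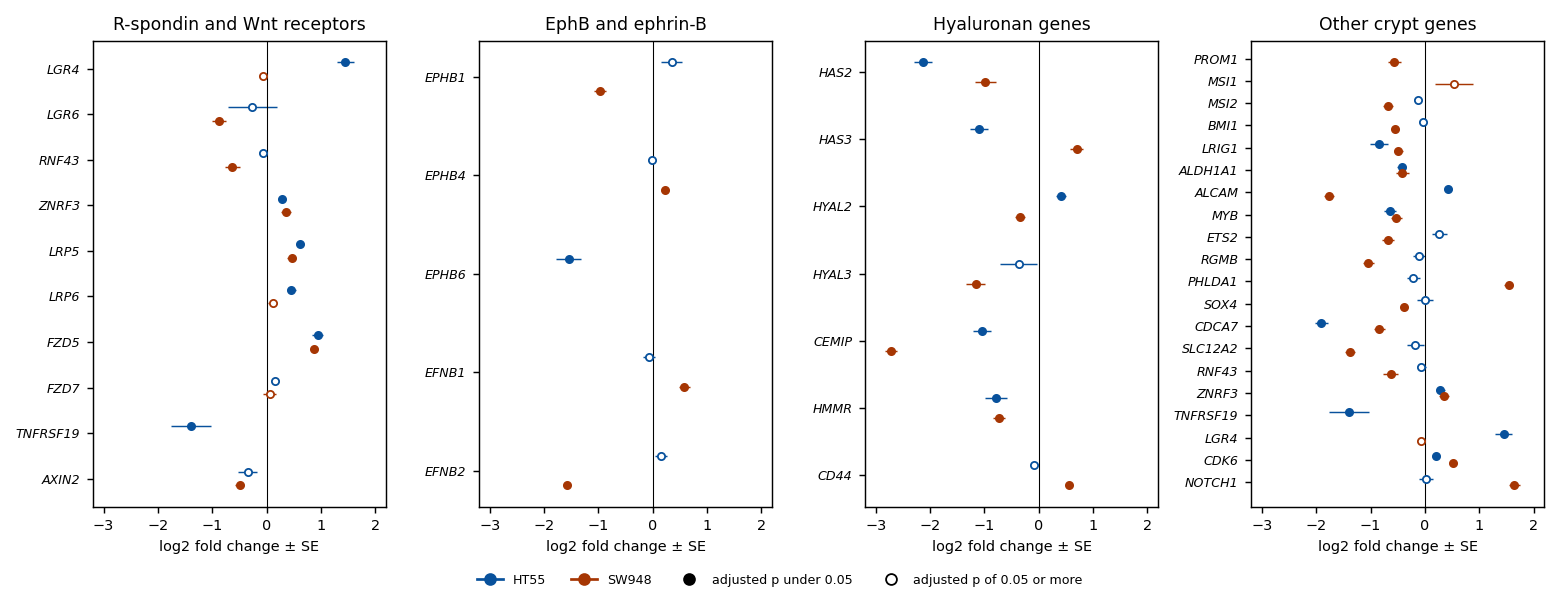
Log2 fold change ± SE, itraconazole over DMSO, of genes that work with the markers, in HT55 (blue) and SW948 (orange), in 4 lists, with filled points at an adjusted p under 0.05. LGR4 is higher in HT55, EFNB2 and CEMIP are far lower in SW948, and the other crypt genes lie mostly below 0 in SW948.

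Proliferation and differentiation genes moved in the same libraries. Of 8 proliferation genes, 5 were lower in HT55 and none was called higher, with PCNA at -0.69 ± 0.18 (log2 fold change ± SE) and MKI67 at -0.31 ± 0.09. In SW948, 4 were higher and 4 lower, with TYMS at -1.79 ± 0.13, PCNA at -1.38 ± 0.08, MKI67 at -0.92 ± 0.11 and AURKA at 1.18 ± 0.08, and with library totals alone 1 was higher and 4 were lower. The 8 genes summed to 1922 to 1997 CPM in HT55 DMSO, 1556 to 1737 in HT55 itraconazole, 915 to 1009 in SW948 DMSO and 964 to 1307 in SW948 itraconazole. Of the colonocyte differentiation genes, 5 of 7 tested were higher in HT55 and none was called lower, with SLC26A3, the chloride-bicarbonate exchanger of surface colonocytes, at 548 ± 45.4 CPM in DMSO and 7427 ± 897 CPM in itraconazole. In SW948, 3 of 6 were higher and 1 was lower, with CEACAM1 at 1.01 ± 0.08 and PHGR1 at -1.62 ± 0.19. The 10 differentiation genes summed to 1170 to 1303 CPM in HT55 DMSO and 7622 to 10100 in HT55 itraconazole, and to 813 to 833 and 1093 to 1217 CPM in SW948, with AQP8, MS4A12 and others of the list too low to test. The sum in HT55 itraconazole was mainly SLC26A3. Both SW948 sums were mainly KRT20, at 660 ± 17.7 CPM in DMSO and 874 ± 81.2 in itraconazole (0.37 ± 0.07). With library totals alone this KRT20 difference was 0.04 and was not called (edgeR adjusted p = 0.546). In HT55, KRT20 was at 184 ± 6.71 CPM in DMSO and 406 ± 93.1 in itraconazole (1.13 ± 0.14, edgeR adjusted p = 0.000112). This HT55 rise was also called with library totals alone (0.98, adjusted p = 0.000622). Without itraconazole replicate 3, 1 proliferation gene was higher and 6 were lower in HT55, and 5 differentiation genes were higher and 1 was lower. The part of these shifts in the values of the stem and progenitor markers was not tested.

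Across all 16 libraries, the gene with the log2 CPM pattern most like that of EPHB2 was ASCL2 (Pearson r = 0.994), among 9225 named genes whose mean log2 CPM reached 3, followed by TOR1A (0.991) and PHF19 (0.990). For ASCL2, EPHB2 came second after LRRC75A (r = 0.994 for both). LGR5 was most like MARS1 (0.991), POLR3C (0.990) and LYRM2 (0.989), and PTK7 had BUB3 and FAIM2 among its nearest genes (0.991 for both). OLFM4 and MEX3A had PLAAT3 among their nearest 3 genes (0.982 and 0.985). For CD44 the nearest were ANKRD27, VAMP2 and HDAC7 (0.963 to 0.976), and for SOX9 CAPN7, PRC1 and RTN4 (0.931 to 0.958). EPHB3 (ILKAP, MAGOH and CIRBP) and SMOC2 (IFT122, HOXA3 and KIF15) had less close neighbors, with r of 0.903 to 0.943. These correlations are descriptions over libraries that share a line and a treatment, and for ASCL2, EPHB2, PTK7, OLFM4 and MEX3A they mainly follow the difference between the lines.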

How the data were processed

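RNA from the 16 cultures, described as biological quadruplicates, was made into TruSeq libraries and sequenced as single-end 50 bp reads, and per the labels the authors aligned them to hg19. The submitters' processing notes name TopHat, HTSeq and DESeq, without versions. The deposited files hold raw read counts per Ensembl gene, not normalized. Strand setting and annotation release are not given in the sources used here. The 5 closing totals of each file, which held 28.2% to 32.9% of reads (mostly reads with more than 1 alignment), were left out of library sizes and tests. Reads shared by near-identical genes are thus missing from their counts. Symbols and exon lengths came from GENCODE on GRCh37 (47098 identifiers, 97.8% of counts).

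Each comparison was fitted on its own 8 libraries, or 16 for the interaction, with edgeR 4.0.16 in R 4.3.3 (TMM, filterByExpr, glmQLFTest, no covariate, adjusted p under 0.05). SE was the log2 fold change over the square root of F. For markers under the filter an exact permutation test (two-sided) of CPM was used. The correlations used log2 CPM with a prior count of 2. Limits for a count of 0 cover counting error only, whereas the 95% intervals come from the fit and include the spread between libraries. The tests were tested on simulated counts first. Replicates were numbered alike in all groups. Same-numbered libraries deviated together only weakly (mean r = 0.03 in HT55 and 0.06 in SW948), and no pairing was used.

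Alternatives were DESeq2 1.42.0, DESeq2 size factors, library totals alone, no filter, at least 10 counts in every library, 1 fit of 16 libraries, a replicate block, leaving out each library, and the longest transcript. The 10 markers and the gene lists were chosen with earlier results of these data known. Beside the markers, the text names the 4 genes of a list with the largest called change in a comparison, those that are a relative, ligand or partner of a marker, and the 3 genes most like each marker, of which 1 is not reported here.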

Additional observations from a re-analysis of the deposited data

Results flagged for a closer look

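For 5 markers the response to itraconazole differed between the lines by the interaction test of edgeR over 16 libraries. As the SW948 response minus the HT55 response on the log2 scale, the differences were -0.89 for LGR5 (adjusted p = 0.00829), 0.99 for PTK7 (2.47e-06), 0.75 for EPHB3 (0.000491), 0.97 for SOX9 (5.18e-07) and 0.67 for CD44 (4.19e-06). Each stayed on its side of the threshold in every alternative fit that was run for it, with ranges of -1.09 to -0.60 for LGR5, 0.80 to 1.05 for PTK7, 0.54 to 0.85 for EPHB3, 0.77 to 1.01 for SOX9 and 0.47 to 0.69 for CD44. Of the 40 combinations of marker and group, each of 4 libraries, 0 held a library that Dixon's criterion sets apart from the other 3 at its 95% level, where chance gives about 1 in 20.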

How the results depend on the processing

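Of 765 recomputed values of the markers, 717 kept their direction and their side of the threshold and 48 did not, and the counts of calls over all genes and over the markers stayed within 1.5 times their size in every alternative. LGR5, EPHB3, PTK7, ASCL2 and SMOC2 in HT55, and LGR5, ASCL2, OLFM4, EPHB3, SOX9, MEX3A and CD44 in SW948, were called in each alternative that tested them. Library totals alone removed the SW948 call of PTK7 (0.02) and reversed the interaction values of ASCL2 (-0.0462), SMOC2 (-0.169) and EPHB2 (-0.0272) and the DMSO difference of CD44 between the lines (0.116), as the scaling moved all genes. The higher SOX9 of SW948 between the treated lines lost its call with library totals alone (0.245, adjusted p = 0.0729) and with no filter (0.248, 0.0585). The SW948 call of EPHB2 was lost with DESeq2 (-0.16, adjusted p = 0.112), DESeq2 size factors (-0.16, 0.0916) and 1 fit of 16 libraries (-0.15, 0.172), and the cause was not tested. Leaving out 1 library gave MEX3A in HT55 -0.166 to 0.0900 and SMOC2 in the interaction -0.577 to 0.371, both changing sign without being called. Same-numbered libraries deviated together by r = 0.03 on average in HT55 and 0.06 in SW948, against -0.01 and -0.02 for other numbers. Number 3 reached 0.14 in HT55 and 0.13 in SW948. Of 8 numbers, 3 were nearest to their own partner. The numbers were not taken as pairs, although a weak pairing is not excluded. With a replicate block, 6300 genes were called in HT55 and 9973 in SW948, the SMOC2 interaction value was -0.0280 and SOX9 between the treated lines was 0.25 (adjusted p = 0.0685). The longest transcript moved 15 of 40 levels per kilobase by more than their SD. Depth limits OLFM4 and MEX3A in HT55 and SMOC2 in both lines, which had 8 to 96 counts a group. Nothing in the sources states how the 4 replicates of a group were made beyond calling them biological, so p-values measure the spread between these cultures.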
